A study of Oryza sativa with 16 samples.

Results

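A total of 668 regions of the rice genome carried a peak of open chromatin after 3 h of heat and in no other condition examined. They were chosen by the measured peaks themselves. The peaks of all 7 conditions were merged, where they overlapped or touched, into 119009 regions, and a region was kept if at least 1 bp of it lay under a heat 3 h peak and no peak of the other 6 conditions fell in it. The heat 3 h only regions are 0.561% of all merged regions. Each of them consists of a single heat 3 h peak, so that 668 of the 91083 heat 3 h peaks (0.733%, 95% Wilson interval 0.680% to 0.791%) had no counterpart. The same rule gave 0.868% of the merged regions to the control. Among the other stress lists, it gave 6.25% to cold 12 h and 2.17% to heat 30 min, but only 0.639% to salt 6 h, 0.374% to cold 24 h and 0.329% to salt 2 h. These counts depend on the lists and on the overlap asked for. With the 87437 strongest peaks of each list there were 1107 heat 3 h only regions, which held 569 of the 668, and they made up 1.02% of the merged regions, against 2.29% for salt 6 h only and 3.75% for cold 12 h only. Without the cold 12 h or the salt 6 h list in the rule there were 1024 or 1017, and with the peaks of other lists extended by 1000 bp there were 266. Wilson intervals here and below cover counting error only.

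The seedlings were of the Japonica rice cultivar Nipponbare and 14 days old in every group. Control seedlings grew at 28 °C. Heat was given at 42 °C for 30 min or 3 h, cold at 4 °C for 12 h or 24 h, and salt as 250 mM NaCl for 2 h or 6 h. FAIRE-seq was performed on 2 independent replicates of each of these 7 conditions, and 1 peak list per condition was deposited, so the spread between replicates is unknown for every value below and nothing was tested with a p-value. The lists hold no read counts, the depth behind a peak is unknown from them, and they hold nothing by which the tissue could be checked. No peak was narrower than 200 bp and no gap between neighbouring peaks of a list was under 401 bp, in any of the 7 lists.

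In FAIRE-seq, fixed chromatin is sheared and DNA not bound to protein is recovered and sequenced, so that stretches poor in nucleosomes gather reads. Such stretches are typically promoters, enhancers and other sites where transcription factors replace nucleosomes. In heat-stressed plants, heat shock factors bind heat shock elements in the promoters of chaperone genes and nucleosomes there are lost or shifted, which is why sites that open under heat are of interest. The material was seedlings, with no tissue named, and opening in a few cells and weak opening in many cells cannot be told apart in it. Gene positions on the IRGSP 1.0 build, to which all coordinates below belong, were not used here, so whether a region lies in a promoter, an exon or an intron was not analysed and no gene is named.

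The heat 3 h only regions were short and weak. Their width had a median of 227.5 bp, with quartiles of 207 and 292.5 bp and a range of 200 to 858 bp, and 510 of them (76.3%) were under 300 bp. All heat 3 h peaks together had a median of 610 bp. The 668 regions summed to 186.7 kb, which is 0.267% of the length covered by heat 3 h peaks. The fold enrichment given by MACS2, which is the authors' value for the reads of a peak over the local background, was 1.96 at the median, 1.32 at the lowest and 3.34 at the highest. The median of the whole list was 2.48, and 611 of the 668 regions lay below it. The −log10 q had a median of 3.75 and a range of 1.03 to 22.8, was under 2 in 120 regions (18.0%) and reached 10 in 25. Only 2 of the regions were among the 20000 heat 3 h peaks of highest fold enrichment, which are 22.0% of that list. These values come from the peaks that chose the regions and are given as a description.

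Width and strength did not go together among them. The 510 regions under 300 bp had a median fold enrichment of 2.04 and a median −log10 q of 4.30, while the 158 wider ones had 1.69 and 2.09. Only 23 regions had both a fold enrichment of at least 2 and a width of at least 300 bp. The plot of fold enrichment against width shows this as a dense column of narrow regions that reaches the highest values and a long, low tail of wide ones.

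**Figure D1:**
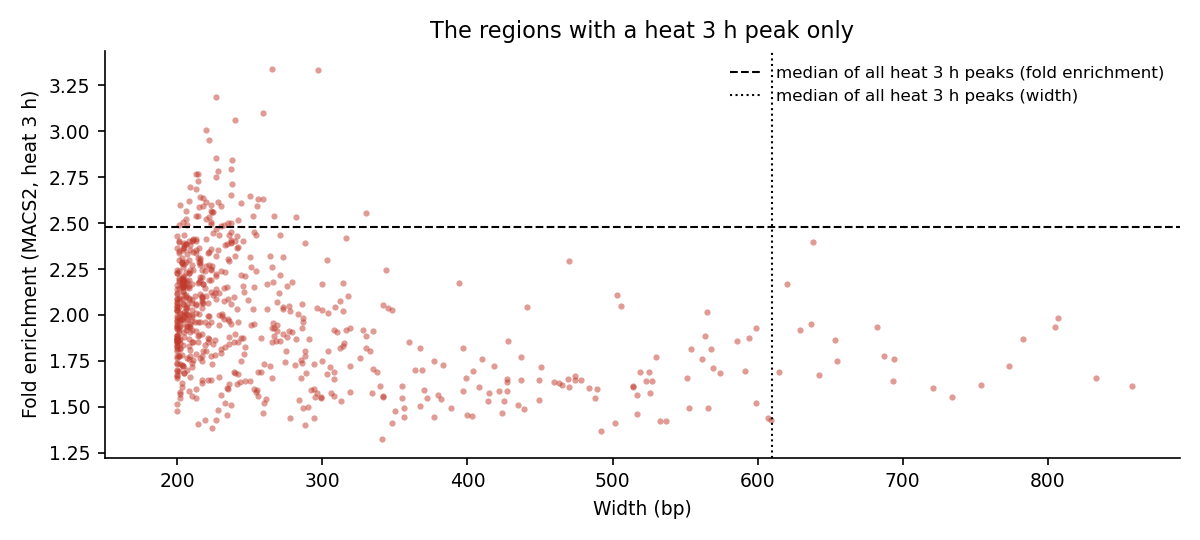
Fold enrichment (MACS2, vertical axis, starting above 0) against width in bp (horizontal axis) for each of the 668 regions with a heat 3 h peak only, 1 point per region. The dashed and dotted lines are the medians of all heat 3 h peaks, 2.48 and 610 bp, and most points lie below the first and left of the second.

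The number of lists that shared a region went with the width of its heat 3 h peak. This order is in part built in, since a wider peak more easily meets a peak of another list by 1 bp. It is given as a description. Of the 82676 merged regions with a heat 3 h peak, 68348 (82.7%) had a peak in every list, and 668 (0.808%) in no other. The median width of the heat 3 h peaks was 227.5 bp with no other list, 250 bp with 1 other list, 334 bp with 5 others and 689 bp with all 6. Fold enrichment did not follow the same order. It had a median of 1.96 with no other list, 1.85 with 1 or with 2 others, 1.94 with 5 and 2.64 with all 6. The heat 3 h only regions were thus the narrowest class by median but not the weakest, and in both measures they stood far nearer to the partly shared regions than to those open in every condition.

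**Figure D2:**
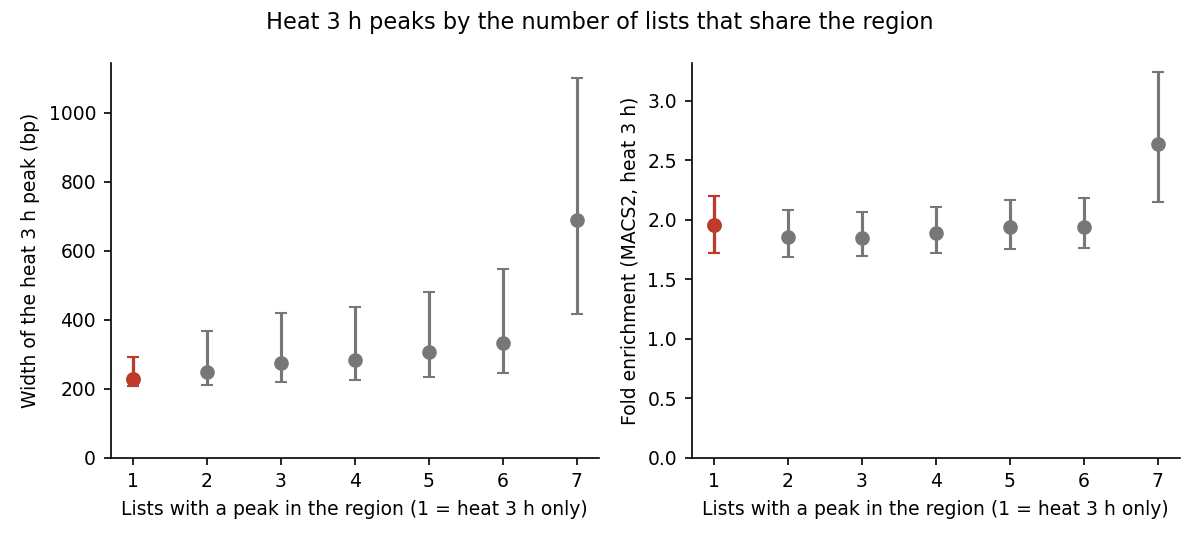
Width in bp (left) and MACS2 fold enrichment (right) of heat 3 h peaks by the number of lists with a peak in the merged region. Points are medians, bars run from the first to the third quartile, and the heat 3 h only regions are in red. Medians of width rise from 227.5 bp to 689 bp, while fold enrichment stays between 1.85 and 1.96 until all 7 lists share the region, where it is 2.64.

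The strongest members were narrow and scattered over the genome. The highest fold enrichment, 3.34 with a −log10 q of 13.7, belonged to Chr12:14654949-14655213, a region of 265 bp with 39 merged regions within 50 kb on either side. The nearest peak of another list lay 1725 bp away, in salt 2 h, at a region that was open in every condition. Next came Chr11:15239877-15240173, of 297 bp and with a fold enrichment of 3.33, which had a salt 2 h peak at 800 bp and, with it, peaks of 5 of the other lists within 1000 bp. These are the members that rank among the 20000 strongest peaks, at the positions 16749 and 16909. The highest −log10 q of all members, 22.8, was found at Chr1:40253652-40253910, with a fold enrichment of 3.10. It lay 429 bp from a heat 30 min peak, and 5 of the other lists, that one included, had a peak within 1000 bp of it.

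The other members of highest fold enrichment had similar widths. Chr1:25855763-25855989 had a fold enrichment of 3.19 and stood 1526 bp from the nearest peak of another list. Chr3:21945652-21945891 reached 3.06, with a heat 30 min peak at 994 bp, and Chr8:3886004-3886223 reached 3.01, with no peak of another list within 2184 bp. These made up, with the regions above, the 6 members with a fold enrichment of 3 or more. Chr12:15330479-15330700 had 2.95, Chr7:12526439-12526665 had 2.85, Chr12:2462506-2462743 had 2.85 and Chr10:6501287-6501523 had 2.79. None of these 10 regions was wider than 297 bp, and their −log10 q ran from 9.65 to 22.8.

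The widest members had low values. Chr4:16310964-16311821, of 858 bp, had a fold enrichment of 1.61 and a −log10 q of 2.52. Chr5:1948191-1949023, of 833 bp, had 1.66 and 1.57, with no peak of another list within 7725 bp. Chr10:11852863-11853669 was 807 bp wide with a fold enrichment of 1.98 and a −log10 q of 5.76, the strongest of the 5 widest. On chromosome 11, Chr11:12874608-12875412 and Chr11:12725461-12726243 had 805 and 783 bp and fold enrichments of 1.93 and 1.87. All 5 were below the first quartile of the heat 3 h list by rank, at percentiles of 3.52 to 23.3.

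Few heat 3 h peaks lay at the very border of the rule. The members nearest to a peak of another list were Chr6:24037730-24037964, 21 bp from a cold 12 h peak, Chr9:6617320-6617536, 32 bp from a control peak, and Chr5:28287663-28288051, 55 bp from a cold 12 h peak. Their fold enrichments were 2.30, 2.21 and 1.49. Just outside the rule, the heat 3 h peaks with the smallest overlap were Chr3:32477735-32478359, with 4 bp shared with cold 12 h, Chr10:20163565-20163944, with 19 bp shared with salt 6 h, and Chr12:2311666-2311912, with 20 bp shared with heat 30 min. Their fold enrichments were 1.58, 1.40 and 1.83. In all, 2 members had a gap under 50 bp and 8 heat 3 h peaks overlapped other lists by at most 50 bp. When a peak counted as shared only if another list covered at least 50% of it, 968 were heat 3 h only.

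Merged regions with a heat 3 h peak and a counterpart in a single other list seldom had it in the earlier heat sample. There were 852 merged regions with a peak in heat 3 h and 1 other list, which is 0.716% of all merged regions. The other list was salt 6 h in 329 of them (38.6%, interval 35.4% to 41.9%) and cold 12 h in 282 (33.1%, 30.0% to 36.3%). It was salt 2 h in 92 (10.8%), cold 24 h in 69 (8.10%), heat 30 min in 56 (6.57%, 5.10% to 8.44%) and control in 24 (2.82%, 1.90% to 4.16%). In the same order, these lists held 87437, 110010, 97058, 102210, 108147 and 99518 peaks, and the part of list length in the counts was not tested. The order of salt 6 h and cold 12 h depends on counting merged regions. Leaving cold 12 h out of the rule gave 1024 heat 3 h only regions, and leaving salt 6 h out gave 1017. Among the 21 possible pairs of lists, heat 3 h with salt 6 h held the fourth largest number of regions found in a pair alone, and heat 30 min with heat 3 h stood at position 17. The pair of cold lists held 204 such regions and the pair of salt lists 284. The largest number, 4613, belonged to cold 12 h with heat 30 min. It is 80.7% of the 5718 regions that heat 30 min shared with a single other list. These 4613 regions had no heat 3 h peak, so they were no candidates for the pair of heat lists. How many heat 3 h regions had a peak in both cold 12 h and heat 30 min is not given here. As each condition had 1 list, the spread of these counts between replicates is unknown.

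**Figure D3:**
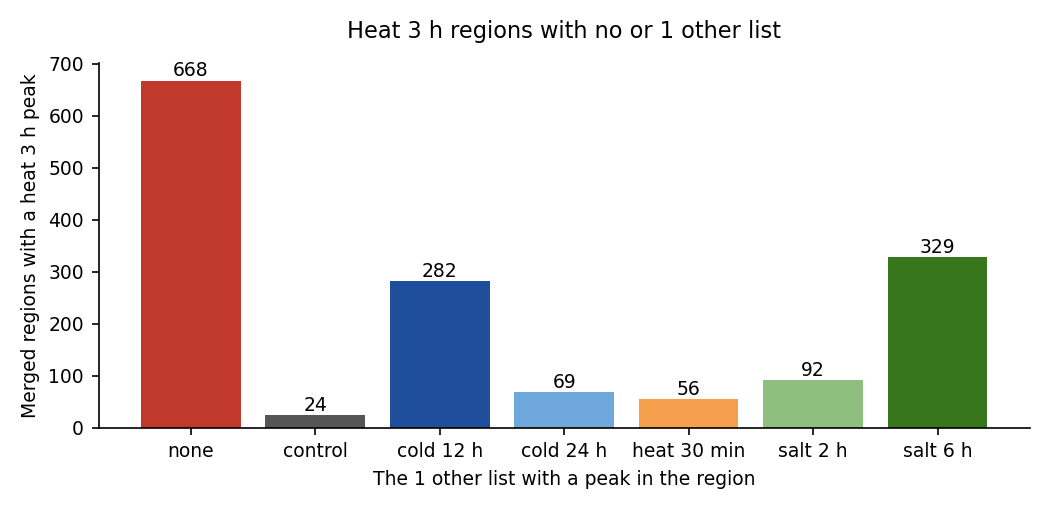
Number of merged regions with a heat 3 h peak and a peak in no other list (668, left bar) or in exactly 1 other list, by that list. The bars of salt 6 h, 329, and cold 12 h, 282, are several times higher than those of the control, 24, and heat 30 min, 56.

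These regions of a pair also differed in strength by partner. The heat 3 h peaks shared with cold 12 h alone had a median fold enrichment of 1.70 and a median width of 286 bp, and those shared with salt 6 h alone had 1.97 and 239 bp. The 56 regions shared by the heat lists alone had a median fold enrichment of 1.82 at 3 h and 1.76 at 30 min, with a median width of 221 bp at 3 h.

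Most members lay within 1000 bp of a peak of another list, but merged regions in general lay no farther from each other. The gap to the nearest peak of any other list had a median of 818.5 bp, with a 95% interval of 766 to 889 bp and quartiles of 524 and 1402 bp. It was at most 1000 bp in 402 of the 668 regions (60.2%, interval 56.4% to 63.8%), and 97 (14.5%) had such a neighbour on both sides. The gap was under 200 bp in 3 members and over 5000 bp in 29. The same share was 63.4% for control only regions (60.4% to 66.3%), 57.6% for cold 12 h only (56.5% to 58.7%) and 67.6% for heat 30 min only (65.8% to 69.4%). The interval of the heat 3 h only regions overlapped those of control and cold 12 h and lay below that of heat 30 min. Each set was measured against its own other 6 lists, which differ in length, so the shares are not fully comparable. Salt 6 h only regions had the lowest share of the 7 sets, 48.4%. Measured to the next merged region of any kind, 60.5% of the members had one within 1000 bp (56.7% to 64.1%), against 65.2% of all merged regions.

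The neighbours were mostly those of all other conditions or of none. Within 1000 bp, 219 members (32.8%) had a peak of each of the 6 other lists and 266 (39.8%) had a peak of none, with 183 in between. The split was not particular to the members. In the other 6 sets of regions in 1 list only, 23.4% (salt 6 h only) to 35.3% (heat 30 min only) had all 6 lists that near. Those with none that near were 32.4% (heat 30 min only) to 51.6% (salt 6 h only). By list, cold 12 h had a peak within 1000 bp of 334 members (50.0%), heat 30 min of 326 (48.8%), cold 24 h of 316 (47.3%), salt 2 h of 309 (46.3%), control of 307 (46.0%) and salt 6 h of 275 (41.2%). Longer lists thus had more such peaks, except that the control list is longer than that of salt 2 h. The heat 3 h list itself had another peak within 1000 bp of 259 members (38.8%), fewer than any other list had, and at no less than 402 bp. Peaks of the same list are at least 401 bp apart, so the heat 3 h list cannot have a nearer one. The other lists can, so its count is not directly comparable with theirs. Of the merged regions next to a member on either side, 60.3% were open in all 7 conditions, against 57.4% of those next to any merged region.

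Open regions beside the members were broad, with the highest median width among the sets of regions in 1 list only. The interval of this median overlapped those of some other sets. The nearest region open in all 7 conditions was within 5000 bp of 601 members, which gave 599 distinct neighbours. Their merged width had a median of 1324 bp (95% interval 1232 to 1408 bp), against 1140 bp for all 68348 regions open in every condition, and the corresponding medians for the other 6 sets of regions in 1 list only were between 1135 and 1282 bp. The intervals for salt 2 h only (1189 to 1449 bp) and heat 30 min only regions (1217 to 1300 bp) overlapped that of the members, as did those for control only (1117 to 1254 bp) and cold 24 h only (1076 to 1290 bp). Those for cold 12 h only (1144 to 1185 bp) and salt 6 h only regions (1074 to 1224 bp) lay below it. Heat 3 h peaks covered a median of 894 bp in these neighbours and control peaks 1008 bp, whereas over all regions open in every condition these were 778 and 887 bp. Heat 3 h coverage was the larger of the pair in 170 of the 599 neighbours (28.4%) and in 29.4% of all such regions. Heat 3 h was the smaller in 429 of the neighbours. The broad regions beside heat 3 h only regions were therefore narrower in the heat 3 h list than in the control about as often as elsewhere.

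Coverage around the members was higher than around heat 3 h regions in general, in every list. Between 500 and 5000 bp from the centre, control peaks covered 25.8% of the bases around members and 22.3% around all merged regions with a heat 3 h peak. The heat 3 h peaks covered 21.1% and 18.5%, the salt 6 h peaks 22.0% and 18.3%, the salt 2 h peaks 25.5% and 21.9%, the cold 24 h peaks 26.1% and 23.0%, the cold 12 h peaks 28.3% and 26.2% and the heat 30 min peaks 28.4% and 26.1%. Around control only regions, too, every list covered more than around heat 3 h regions in general. Control peaks covered 23.5% there and heat 3 h peaks 20.1%. Around heat 30 min only regions the coverage was higher than around the members, with 27.6% for control peaks and 23.7% for heat 3 h peaks. Around salt 6 h only regions it was lower, with 17.4% for control peaks and 14.5% for heat 3 h peaks. Distances run from the centre, so regions over 1000 bp wide reach into this range themselves. The part of width in these values was not tested. In the profile of coverage by distance, the heat 3 h and salt 6 h lists were below the other 5 at every plotted distance from 800 to 5000 bp on both sides of the members, but not nearer to them. These lists also covered the least of the genome, 69.9 and 68.6 Mb against 81.0 to 96.2 Mb.

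**Figure D4:**
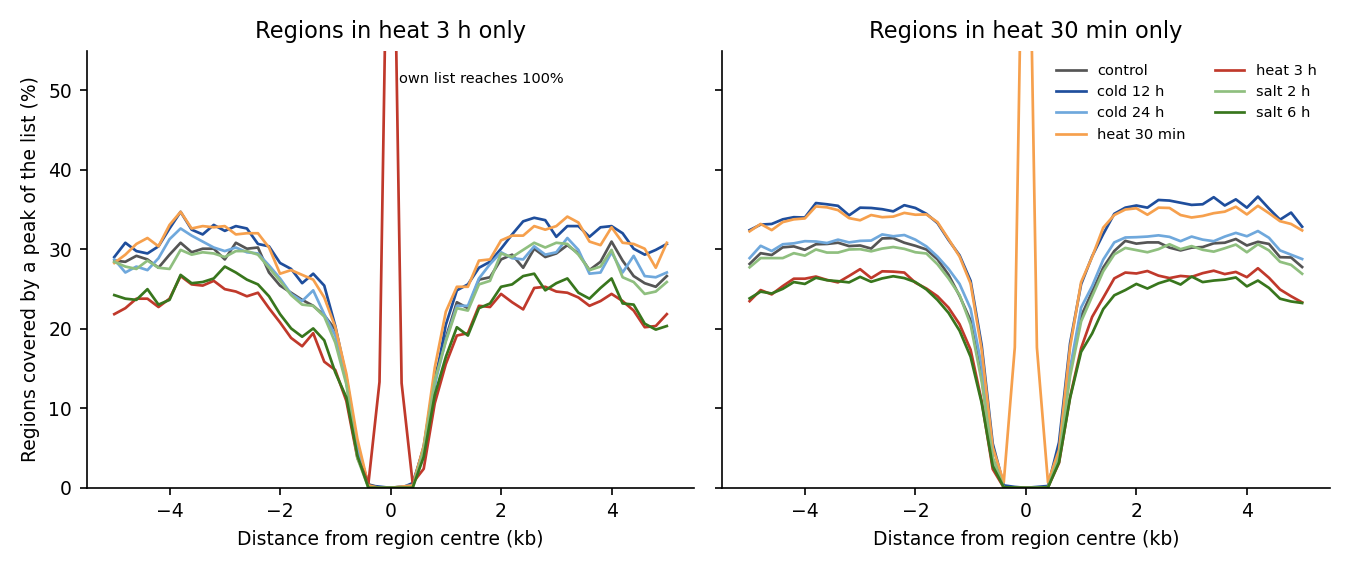
Share of regions (%) covered by a peak of each of the 7 lists, by distance in kb from the centre of the 668 heat 3 h only regions (left) and of the 2584 heat 30 min only regions (right). The axis is limited below the peak of the region's own list, which covers every centre, and by the rule the other 6 lists are at or near 0 there. All lists rise on both sides, and heat 3 h and salt 6 h run lowest around the heat 3 h only regions from 800 bp outwards.

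Members were spread over all 12 chromosomes in much the proportion of the merged regions. Chromosome 1 held 74 of them (11.1%), chromosome 2 held 68, chromosome 3 held 67, chromosome 4 held 66 and chromosome 12 held 39, the fewest. The Wilson interval of the share held the share of all merged regions on 11 of the 12 chromosomes. The exception was chromosome 5, with 72 members, which is 10.8% (8.65% to 13.4%) of them against 8.36% of all merged regions. Up to the end of the last peak, chromosome 5 had 2.40 members per Mb, and the other chromosomes had between 1.42 and 1.94.

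**Figure D5:**
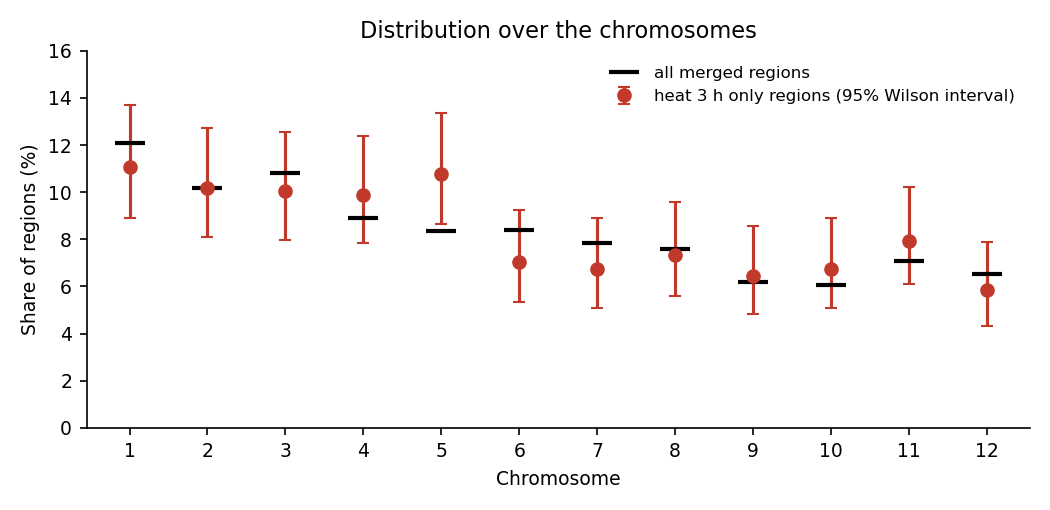
Share of the 668 heat 3 h only regions on each chromosome (red points, %, with 95% Wilson intervals) and share of all 119009 merged regions (black bars). The black bar lies outside the interval on chromosome 5 alone.

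Within chromosomes most members lay far apart, with a few closer groups. The median distance between the centres of neighbouring members was 394.4 kb. In windows of 1 Mb, 314 of 379 windows held at least 1 member, 342 held at most 3, and the number per window had a mean of 1.76 and a variance of 1.70. The highest number was 6, reached in 4 windows: 16000001 to 17000000 on chromosome 4, 15000001 to 16000000 on chromosome 5, 1 to 1000000 on chromosome 9 and 7000001 to 8000000 on chromosome 10. Only 6 pairs of neighbouring members were closer than 5000 bp. The closest were Chr2:16148199-16148400 and Chr2:16148853-16149385, with 452 bp between them, followed by a pair on chromosome 3, 612 bp apart, and a pair on chromosome 6, 631 bp apart. The closest group, singled out after its values were seen, was on chromosome 5, where 5 members lay within 124.3 kb (Chr5:15327534-15451874). It was poor in open chromatin, with 5 to 13 merged regions within 50 kb of each of the 5, and their fold enrichments were between 1.76 and 2.00. The next closest groups of 5 spanned 254.3 kb on chromosome 9 and 274.3 kb on chromosome 10. Over all members there was a median of 33 merged regions within 50 kb (95% interval 33 to 34, quartiles 28 and 37), and all merged regions had a median of 34 (quartiles 30 and 38).

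A few members stood alone. Chr7:27301140-27301352 had no peak of another list within 44833 bp and 1 merged region within 50 kb of it, with a fold enrichment of 2.40 and a −log10 q of 5.78. Chr7:14194541-14194816 was 17796 bp from the nearest such peak, with a fold enrichment of 2.16, and Chr5:15327534-15327943 was 15249 bp from it, with 1.76. The last of these belongs to the group of 5 on chromosome 5.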

How the data were processed

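Seedlings of 7 conditions were profiled by FAIRE-seq in 14 libraries, 2 replicates per condition. The authors mapped the reads with Bowtie2 (IRGSP 1.0), filtered out organelle insertion sites, low mapping scores and duplicates, and called broad peaks with MACS2. They also report a removal of weakly covered peaks. They deposited 1 list per condition. How the replicates were combined, and whether that removal was applied to the deposited lists, is not given in the sources used here. The fold enrichment, −log10 p, −log10 q and display score of each peak are deposited values from MACS2, of which the fold and −log10 q were used.

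Peaks were merged and gaps and covered bases computed in Python 3.11.15 with numpy 2.4.6 and scipy 1.17.1, and plotted with matplotlib 3.10.9. bedtools 2.31.1 found the same 668 heat 3 h peaks without overlap. All 5 quantities tested on 5000 simulated regions were recovered. Intervals of shares are Wilson and those of medians rest on order statistics, both at 95%.

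The regions named were the 10 members of highest fold enrichment, the 5 widest, the 3 farthest from and the 3 nearest to another list's peak, the 3 heat 3 h peaks of smallest overlap, and the fullest 1 Mb windows. The closest pairs and groups of members, the highest −log10 q and the equal-length shares of the other lists were added after their values were seen. The members, comparisons and rules were chosen with earlier results of these data known. The planned gene lists, motif counts and sequences need an IRGSP 1.0 annotation and genome and were not analysed here, and neither were the 2 RNA-seq libraries. Alternatives covered the limit on −log10 q, list length, overlap, distance and the lists in the rule.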

Additional observations from a re-analysis of the deposited data

How the results depend on the processing

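The number of heat 3 h only regions stayed within 1.5 times of 668 in 8 of 12 alternatives. It was 1107 with the 87437 peaks of highest fold enrichment from each list, of which 569 were among the 668. It was 1024 without the cold 12 h list and 1017 without the salt 6 h list. The 282 and 329 merged regions that heat 3 h shared with these lists alone become heat 3 h only, which is a part of the rise. It was 266 when peaks of the other lists were extended by 1000 bp. With a −log10 q of at least 2 in all lists it was 680, of which 548 were among the 668. The share of regions within 1000 bp of another list's peak left its interval in 3 of 13 alternatives. It was 72.5% when at least 50% of a peak had to be covered and 22.2% within 500 bp, and the extension by 1000 bp brings it to 0 by construction. The median number of merged regions within 50 kb was 31.5 with that extension and 33 or 34 in the other 11 alternatives, which were all added for this measure after seeing the data. The median width lay between 221 and 271 bp, the median fold enrichment between 1.86 and 2.04, and the number among the strongest peaks between 0 and 3. No paired analysis was possible because each condition has 1 peak list for both replicates, and for the same reason no replicate could be left out. The lists hold no read counts, so whether a missing peak is closed chromatin or low depth was not tested.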

Other observations

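Regions open in a single other condition were found within 5000 bp of some members. A cold 12 h only region was that near to 84 members (12.6%, 95% Wilson interval 10.3% to 15.3%), and to 19.6% of all merged regions with a heat 3 h peak. A heat 30 min only region was that near to 33 members (4.94%, 3.54% to 6.86%) and to 8.54% of those regions. For control only (25 members, 3.74%), salt 6 h only (18, 2.69%), salt 2 h only (13, 1.95%) and cold 24 h only regions (8, 1.20%), the shares of all regions with a heat 3 h peak were 3.14%, 1.83%, 1.12% and 1.26%. The sets differ in size, from 391 to 7443 regions, so their counts are not comparable with each other.

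Widths were bounded below by the 200 bp minimum of all lists. Except for cold 12 h only with 310 bp, the 7 sets of regions in 1 list only had medians near it, of 214 to 227.5 bp. The position of their median fold enrichment in their own list differed, from percentile 9.15 for salt 2 h only and 9.71 for salt 6 h only to 17.3 for heat 30 min only and 22.0 for heat 3 h only. The highest −log10 q of a set was 22.8 for heat 3 h only and between 7.77 and 15.4 for the other 6. The value of 22.8 is that of 1 region, Chr1:40253652-40253910, and such values come from the peaks that chose the regions. No replicate error is known for these values.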
